A study of Mus musculus with 6 samples.

Results

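The genes described here carry newly made proteins into the endoplasmic reticulum (ER), glycosylate and fold them there, and export them in vesicles. They were 56 genes chosen by name for their roles, of 31017 gene rows in the count table, and all 56 passed the filter on low counts. They were sorted by role into the signal recognition particle (5 genes), the translocation channel (5), the TRAP complex beside the channel (4), signal peptidase (3), oligosaccharyltransferase (9), folding factors (9), stress sensors and their transcription factors (5), the COPII vesicle coat (10) and cargo receptors with retrieval receptors (6).

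RNA came from 4T1, an established mouse breast cancer line of BALB/c origin. The KO group, with 3 libraries, was given Cas9 by nucleofection together with sgRNAs against FGFR2, a receptor for fibroblast growth factors. The control group, also with 3 libraries, was given Cas9 with control sgRNAs, and cells of both groups were then cultured in 3D gels of collagen I. The labels name 2 collagen concentrations, 1.2 and 2.4 mg/ml, without tying a library to either and leave unsaid whether edited cells were cloned and whether replicates came from separate cultures. A p-value here thus compares a difference with the variation among these 6 libraries, part of which may be technical. Cells of both groups were freed from the gels by collagenase at 37°C for 10 minutes and then for a further 5 minutes.

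A secreted or membrane protein is recognised at its signal peptide by the signal recognition particle, threaded through the Sec61 channel, trimmed by signal peptidase and given N-glycans by oligosaccharyltransferase. Lectin chaperones, disulfide isomerases and Hsp70 and Hsp90 family chaperones then fold it, and COPII vesicles carry it toward the Golgi, from which KDEL receptors bring escaped ER residents back. When unfolded proteins accumulate, the membrane sensors IRE1 (gene Ern1), ATF6 and PERK (gene Eif2ak3) start the unfolded protein response, acting through the transcription factors XBP1, cleaved ATF6 and ATF4. Many genes of the folding machinery are classical targets of that response. A mammary carcinoma cell that secretes cytokines, proteases and matrix depends on this route for all of those products.

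One regulatory element of these genes can be read in sequence, and it was searched for after the values of the genes had been seen. The ER stress response element, ERSE, is bound by ATF6 and XBP1 with the factor NF-Y, and reads CCAAT, then any 9 bases, then CCACG. RefSeq promoter windows on GRCm38.p6, from 250 bases before to 50 bases after the transcription start, were searched for an exact ERSE on either strand. It occurred in 39 of 32851 windows (0.119%), which belonged to 37 of 27025 genes (0.137%). Of the 46 listed genes that had a window, 5 held it (10.9%). Since many folding genes are classical targets of the response, that share is a description and was not tested. The 5 were all folding genes: Calr, Hspa5, Canx, Hsp90b1 and Pdia6. Srp19, Srp68, Sec61a1, Ssr2, Spcs3, Ostc, Atf6, Kdelr2, Lman1 and Tmed2 had no window. The 250 bases upstream of each start are shown because they let the element be compared with the response of each gene below. Each is written 5′ to 3′ on the strand of the gene, with the ERSE in capitals (as its reverse complement in Calr and in the second site of Hsp90b1).
Calr: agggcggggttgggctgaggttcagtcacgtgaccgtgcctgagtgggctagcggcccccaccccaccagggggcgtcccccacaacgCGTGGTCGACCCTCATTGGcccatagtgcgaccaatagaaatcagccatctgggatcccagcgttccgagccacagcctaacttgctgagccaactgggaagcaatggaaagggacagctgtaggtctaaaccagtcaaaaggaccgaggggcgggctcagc
Hspa5: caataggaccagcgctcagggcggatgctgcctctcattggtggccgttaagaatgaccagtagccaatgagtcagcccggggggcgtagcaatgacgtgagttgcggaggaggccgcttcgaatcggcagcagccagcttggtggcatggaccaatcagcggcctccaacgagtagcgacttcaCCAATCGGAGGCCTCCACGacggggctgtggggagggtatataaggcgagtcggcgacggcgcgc
Canx: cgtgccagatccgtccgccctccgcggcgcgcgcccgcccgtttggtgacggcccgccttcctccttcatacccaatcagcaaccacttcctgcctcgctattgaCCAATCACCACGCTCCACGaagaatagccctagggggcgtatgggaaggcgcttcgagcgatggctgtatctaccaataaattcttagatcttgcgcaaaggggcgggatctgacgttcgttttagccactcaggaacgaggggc
Hsp90b1: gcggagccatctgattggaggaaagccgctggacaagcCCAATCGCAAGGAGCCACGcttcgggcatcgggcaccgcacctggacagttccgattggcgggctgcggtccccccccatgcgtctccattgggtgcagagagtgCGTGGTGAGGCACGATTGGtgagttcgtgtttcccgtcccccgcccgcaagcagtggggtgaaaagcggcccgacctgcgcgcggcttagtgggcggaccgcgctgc
Pdia6: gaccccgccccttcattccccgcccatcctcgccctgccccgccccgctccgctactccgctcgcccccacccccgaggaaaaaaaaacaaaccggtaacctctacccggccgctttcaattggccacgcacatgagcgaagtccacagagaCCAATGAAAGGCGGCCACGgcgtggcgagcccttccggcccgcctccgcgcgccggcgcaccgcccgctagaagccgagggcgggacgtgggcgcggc
The windows are chr8:84846932-84847181 on the minus strand (Calr), chr2:34771840-34772089 on the plus strand (Hspa5), chr11:50325674-50325923 on the minus strand (Canx), chr10:86705445-86705694 on the minus strand (Hsp90b1) and chr12:17266339-17266588 on the plus strand (Pdia6). The element lay between -162 and -144 relative to the start in Calr, between -65 and -47 in Hspa5 and between -145 and -127 in Canx. Hsp90b1 held 2 matches, at -212 to -194 and -107 to -89, and Pdia6 held 1 at -98 to -80.

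The libraries held between 15531790 and 20447719 counts, and replicates varied by a biological coefficient of variation of 4.00%. Values are in CPM, the read count scaled to a TMM-normalised library of 1000000 counts, and a call means a Benjamini-Hochberg adjusted p below 0.05 in edgeR's quasi-likelihood test over 12158 tested genes. Fgfr2, the targeted gene, stood at 101, 81.2 and 95.2 CPM in KO replicates 1 to 3, against 96.9, 95.9 and 106 CPM in control replicates 1 to 3. Those groups overlapped (edgeR adjusted p = 0.113), and a count over the whole gene does not test the label, since the labels do not say where the guides cut. Of the defining markers, the 8 mammary epithelial genes summed to 5040 to 5135 CPM in KO and 4941 to 5058 CPM in control libraries. Within that sum 7 of the 8 were called and went both ways: the basal keratin Krt14 averaged 957 CPM in KO and 60.2 CPM in control libraries (log2 fold change 3.99), the luminal keratin Krt18 918 CPM in KO and 1402 CPM in control libraries, and Epcam 288 CPM in KO and 386 CPM in control libraries. The 12 leukocyte markers summed to 16.1 to 17.1 CPM in KO and 23.7 to 26.3 CPM in control libraries, with Cd3e, Ms4a1, Adgre1 and S100a9 at 0 in every library. The 8 fibroblast markers summed to 39.7 to 45.4 CPM in KO and 36.3 to 38.2 CPM in control libraries, with Col3a1, Lum and Thy1 at 0, and the 5 endothelial markers stayed below 1 CPM in each library, with Kdr and Tek at 0. Mitochondrial transcripts took 1.38% to 1.43% of counts in KO and 0.953% to 1.02% in control libraries. The part of these markers and shares in the results below was not tested. In bulk RNA, fewer cells of a type and less RNA per cell cannot be told apart.

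Of the 56 genes, 22 were higher in KO libraries (39.3%), 12 were lower (21.4%) and 22 did not pass the test. The differences were small. The median absolute log2 fold change was 0.14, only Calr exceeded 0.5, and 0 genes reached 1. Over all tested genes, which include less abundant ones, the median was 0.21 and 833 reached 1. Sizes were not compared among genes matched in level. Among all tested genes 54.6% were called, 27.1% higher and 27.5% lower. The counts by role and by list below are to be read beside these shares. The listed genes are abundant, and among the 8176 tested genes with a mean at or above that of the lowest of them (16.3 CPM) 60.7% were called, 32.7% higher and 28.0% lower. The called share of the 56 genes, 60.7%, is that of the genes at or above 16.3 CPM, a set not matched to them in level. It is thus the size, direction and identity of the single genes that are described here. Their summed level was 12638 CPM in KO and 11693 CPM in control libraries, and Calr alone made 43.2% of that difference, Pdia3 17.4% and Hspa5 17.1%.

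**Figure D1:**
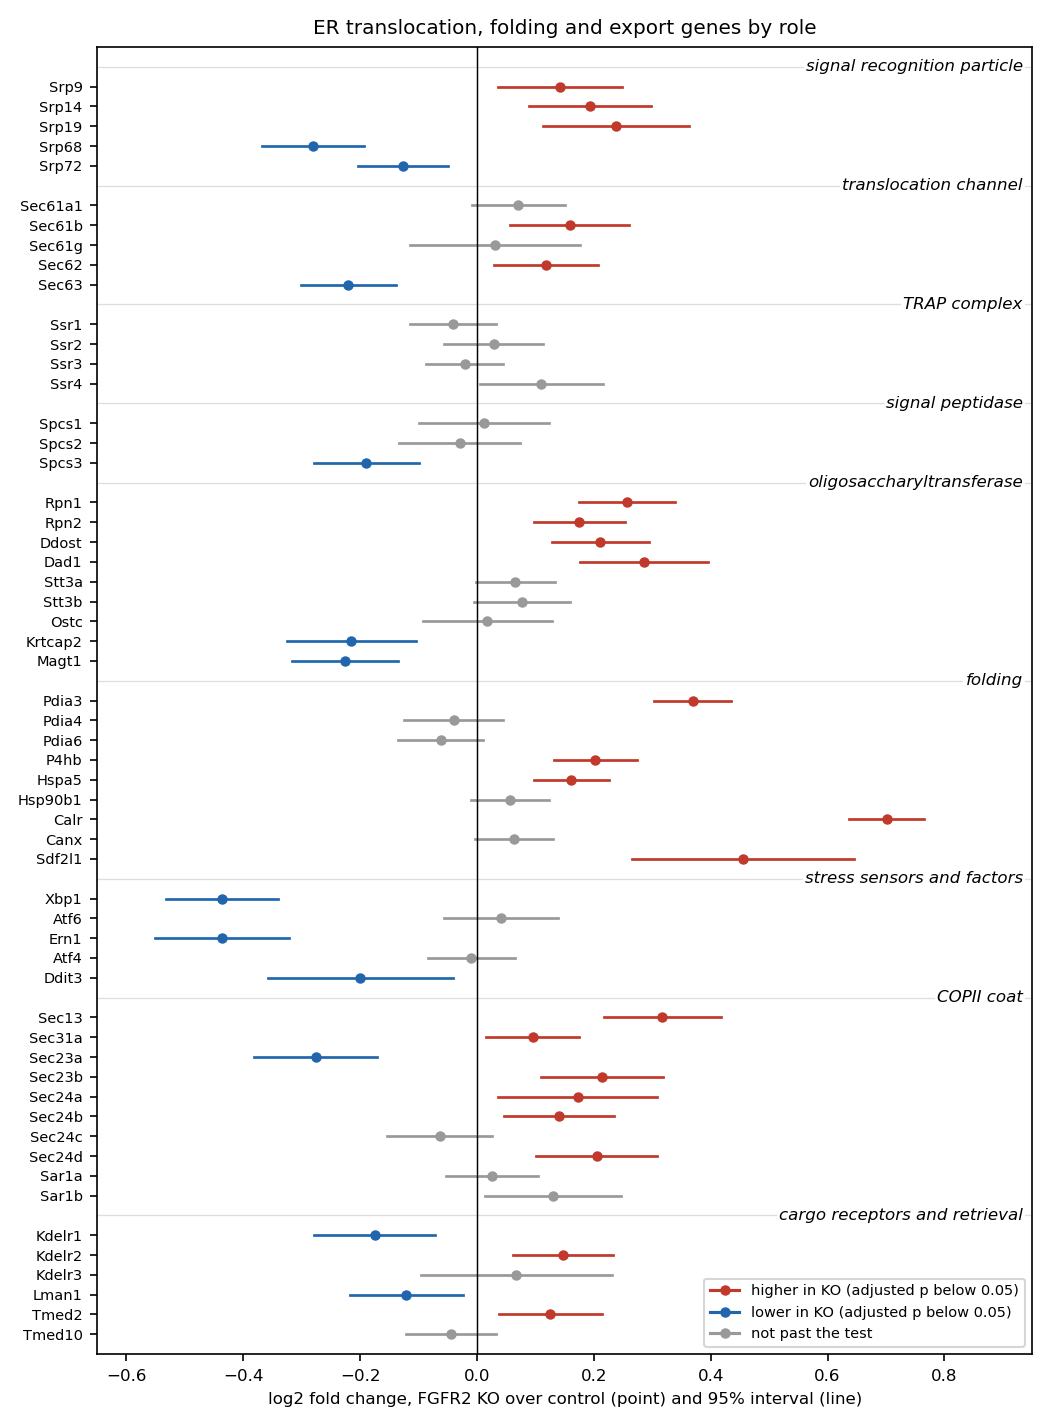
Log2 fold change of each of the 56 genes, KO over control (horizontal axis, points), with its 95% interval (lines), grouped by role down the page. Calr lies farthest to the right at 0.70 and Xbp1 and Ern1 farthest to the left at -0.44, and the 4 TRAP genes are all grey.

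The folding factors held the largest rises. Of 9 genes, 5 were higher in KO, 0 were lower and 4 did not pass (55.6% called, against 54.6% of all tested genes). The median log2 fold change was 0.16, against -0.01 over all tested genes. Calr encodes calreticulin, the soluble lectin chaperone that binds glycoproteins with trimmed glucose (chromosome 8, 84841850 to 84846934, minus strand, mm10). It stood at 1043, 1064 and 1073 CPM in KO libraries, against 658, 657 and 641 CPM in control libraries. The KO libraries lay entirely above the control libraries, with a log2 fold change of 0.70 with an SE of 0.032 (edgeR adjusted p = 1.29e-20, 1.63-fold). Calr was also the one listed gene that passed a test against a minimum fold change of 1.5.

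Pdia3, the disulfide isomerase ERp57 that works with calreticulin and calnexin, stood at 736, 736 and 718 CPM in KO libraries, against 561, 573 and 560 CPM in control libraries. The groups did not overlap, and the log2 fold change was 0.37 (SE 0.032, edgeR adjusted p = 3.01e-12). Exons of Pdia3 overlap those of Catsper2 on the opposite strand. Sdf2l1, a partner of the Hsp70 chaperone BiP, had the lowest CPM of the 56 genes, at 18.0, 19.7 and 18.9 CPM in KO libraries, against 14.6, 13.6 and 13.0 CPM in control libraries. It was higher in every KO library than in any control library, by 0.46 (SE 0.094, edgeR adjusted p = 9.1e-05).

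Hspa5, which encodes BiP itself, stood at 1565, 1503 and 1496 CPM in KO libraries, against 1321, 1367 and 1393 CPM in control libraries, a separated but small rise of 0.16 (SE 0.032, edgeR adjusted p = 4.44e-05). P4hb, the main protein disulfide isomerase and also the beta subunit of prolyl 4-hydroxylase, rose by 0.20 to 538 ± 18.2 CPM in KO libraries, against 468 ± 12.7 CPM in control libraries (SD, n = 3 each, edgeR adjusted p = 6.22e-06). Per kilobase of exon, Calr reached 368 ± 5.44 CPM in KO libraries, level with Hspa5 at 360 ± 9.02, whereas in control libraries Calr at 226 ± 3.39 stood below Hspa5 at 322 ± 8.68.

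The rest of the folding group did not pass. Canx, the membrane-bound lectin chaperone calnexin and the counterpart of calreticulin, stood at 844, 828 and 791 CPM in KO libraries, against 781, 788 and 789 CPM in control libraries. The groups did not overlap, yet the log2 fold change was only 0.06 (edgeR adjusted p = 0.0996), and without KO replicate 3 it was 0.09 (edgeR adjusted p = 0.0263). Hsp90b1, which encodes the chaperone GRP94, averaged 1047 ± 37.1 CPM in KO and 1006 ± 24.4 CPM in control libraries (SD, n = 3 each), with overlapping groups and a log2 fold change of 0.06 (edgeR adjusted p = 0.146, and 0.0349 without KO replicate 3). The disulfide isomerases Pdia4 and Pdia6 had log2 fold changes of -0.04 (95% interval -0.13 to 0.05) and -0.06 (-0.14 to 0.01). Exons of Hsp90b1, Pdia4 and Pdia6 overlap other annotated genes.

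The 5 ERSE promoters shown above therefore belonged to genes with different outcomes, with Calr at 0.70 and Hspa5 at 0.16 past the test and Canx, Hsp90b1 and Pdia6 not past it. Across the genome 37 genes held an exact ERSE in a window, and 15 of them were tested, of which 5 were higher in KO, 4 were lower and 6 did not pass (60.0% called, median log2 fold change 0.06). The shorter element ERSE-II (ATTGG, any 1 base, CCACG) occurred in 12 windows (0.0365%), among them that of Krtcap2, and the XBP1 element UPRE (TGACGTGG) in 222 windows (0.676%), among them those of Kdelr3, Sec23a and Sec24d. An ATF4 site (TGATGCAA) occurred in 294 windows (0.895%) and in 0 of the 46 listed genes that had a window. Both strands were searched, and 0 matches of different elements overlapped in these 46 genes. A match is a description of letters in this window and says nothing of binding.

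**Figure D2:**
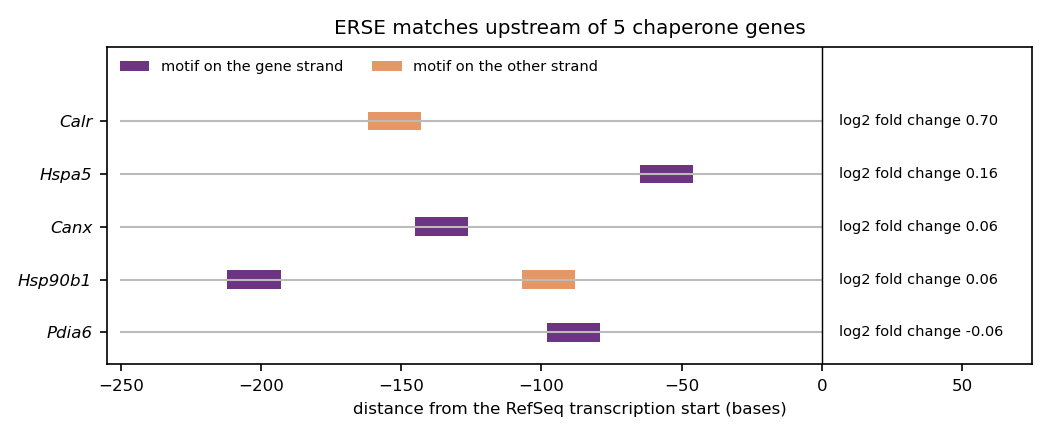
Position of exact ERSE matches (bars of 19 bases) in the 250 bases before the RefSeq start of 5 folding genes, with distance from the start in bases on the horizontal axis and the log2 fold change, KO over control, at the right. Matches lie between -212 and -47, and genes with a match range from -0.06 (Pdia6) to 0.70 (Calr).

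The stress sensors and their transcription factors showed no rise. Of 5 genes, 3 were lower in KO, 0 were higher and 2 did not pass (60.0% called, against 54.6% of all tested genes). The median log2 fold change was -0.20. Xbp1, the transcription factor made active when IRE1 splices its mRNA (chromosome 11, 5520659 to 5525893, plus strand), stood at 67.1, 69.9 and 66.6 CPM in KO libraries, against 93.3, 91.2 and 91.1 CPM in control libraries. All KO libraries were below all control libraries, with a log2 fold change of -0.44 with an SE of 0.048 (edgeR adjusted p = 6.72e-10). Counts per gene do not separate the spliced from the unspliced Xbp1 mRNA.

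Ern1, which encodes IRE1 alpha, the kinase and RNase that splices Xbp1 (chromosome 11, 106394650 to 106487852, minus strand), stood at 45.3, 43.5 and 48.9 CPM in KO libraries, against 62.0, 63.6 and 60.7 CPM in control libraries. It fell by the same amount as Xbp1, with a log2 fold change of -0.44 with an SE of 0.057 (edgeR adjusted p = 3.46e-08) and no overlap between groups. Sensor and substrate were thus both at 0.739 of the control level.

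Atf6, the sensor that is cleaved in the Golgi into a transcription factor, stood at 124, 108 and 119 CPM in KO libraries, against 111, 110 and 120 CPM in control libraries. The groups overlapped, with a log2 fold change of 0.04 (95% interval -0.06 to 0.14, edgeR adjusted p = 0.485). Atf4, the factor whose translation rises when PERK phosphorylates eIF2 alpha, stood at 299, 304 and 283 CPM in KO libraries, against 299, 291 and 302 CPM in control libraries. Its interval of -0.08 to 0.06 leaves out a change of the size of Xbp1, although mRNA counts do not report on the translation through which Atf4 is mainly controlled.

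Ddit3, which encodes CHOP, the pro-apoptotic factor of prolonged ER stress, stood at 23.2, 21.2 and 23.0 CPM in KO libraries, against 26.7, 24.8 and 26.0 CPM in control libraries, a log2 fold change of -0.20 with an SE of 0.078 (edgeR adjusted p = 0.0298). The groups did not overlap, but the call was lost without KO replicate 2 (edgeR adjusted p = 0.119), control replicate 1 (0.109) or control replicate 3 (0.065), and exons of Ddit3 overlap Mars and Gm4189 on the opposite strand.

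**Figure D3:**
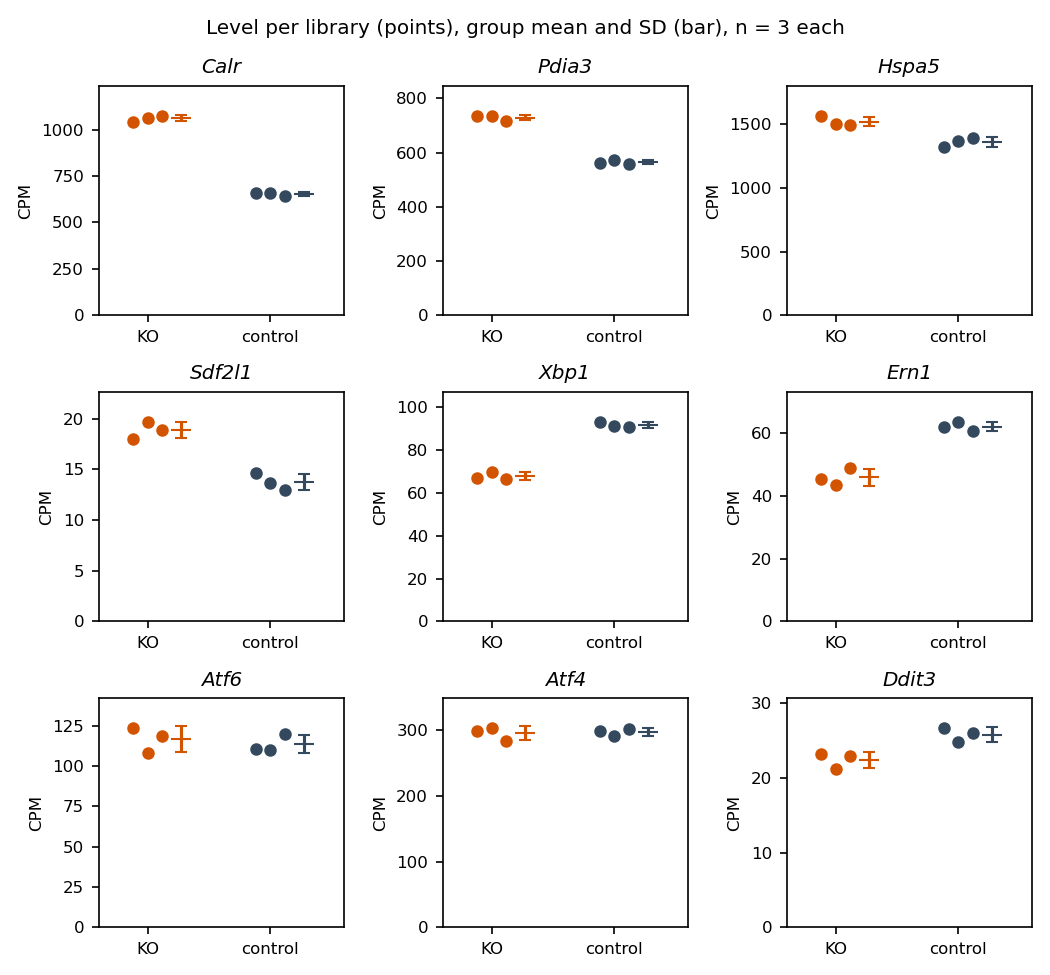
Level in CPM (vertical axis, from 0) of 4 folding genes and the 5 stress sensors and factors in each KO and control library (points), with the group mean and SD (bars, n = 3 each). Calr, Pdia3, Hspa5 and Sdf2l1 are higher in every KO library, Xbp1, Ern1 and Ddit3 are lower, and the groups overlap for Atf6 and Atf4.

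Targets of the response were listed from textbook knowledge, with earlier results of these data known, and no test compared them with the sensors. Of 24 tested targets of IRE1 and ATF6, 9 of which are among the 56 genes, 12 were higher in KO, 1 was lower (Xbp1 itself) and 11 did not pass, with a median of 0.16. The called share, 54.2%, was near the 54.6% of all tested genes. Of the 15 tested ones outside the 56 genes, 8 were higher and 0 were lower, with a median of 0.16. The co-chaperone Dnajb11 (ERdj3), a partner of BiP, rose by 0.70 to 121 ± 7.61 CPM in KO libraries, against 74.6 ± 0.518 CPM in control libraries (SD, n = 3 each, edgeR adjusted p = 2.97e-15). Dnajc3, another BiP co-chaperone, rose by 0.38 (edgeR adjusted p = 4.08e-09). Dnajb9 (ERdj4), Edem1 and Syvn1 are often used as reports of XBP1 activity and were picked out here after their values were seen. They did not pass, at log2 fold changes of 0.17, 0.10 and -0.12, although every KO library lay above every control library for Dnajb9. Also among the 12 called higher were Hyou1, Creld2 and Srprb, at log2 fold changes of 0.33, 0.32 and 0.26.

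Of 24 tested targets of PERK and ATF4, 15 were higher, 6 were lower and 3 did not pass. Their median was 0.25, and Ddit3, described above, was among the 6 lower genes. The called share was 87.5%, against 54.6% of all tested genes. Nupr1, a stress-induced chromatin protein, rose by 1.39 to 237 ± 9.40 CPM in KO libraries, against 90.4 ± 1.39 CPM in control libraries (SD, n = 3 each, edgeR adjusted p = 3.57e-26). Atf3, a stress-induced transcription factor, rose by 0.84 and Phgdh, the entry enzyme of serine synthesis, by 0.50, whereas Ddit4, an inhibitor of mTORC1, fell by 0.60. Atf3 is also known to respond to enzymatic dissociation. Of 11 tested genes of a dissociation and heat list, 6 were higher and 4 lower (90.9% called, against 54.6% of all tested genes). The 4 with the smallest adjusted p went both ways. Egr1, an immediate early gene, Ier2 and Jun had log2 fold changes of -1.31, -0.51 and -0.31, and Hspa1b had one of 0.48. The list summed to 6466 to 6681 CPM in KO and 6732 to 6764 CPM in control libraries, and its part in these values was not tested.

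Among the partners of the sensors, 2 of 9 tested genes were higher, 5 were lower and 2 did not pass, with a median of -0.10. Tmbim6, an ER membrane protein known to restrain IRE1, fell by 0.23 (edgeR adjusted p = 9.46e-07). The ER-bound transcription factor Creb3 rose by 0.31 and its relative Creb3l2 fell by 0.30, and Wfs1, an ER membrane glycoprotein, fell by 0.35. Eif2ak3 itself, picked out after its value was seen, averaged 22.1 CPM in KO and 20.9 CPM in control libraries and did not pass (log2 fold change 0.07, edgeR adjusted p = 0.493).

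**Figure D4:**
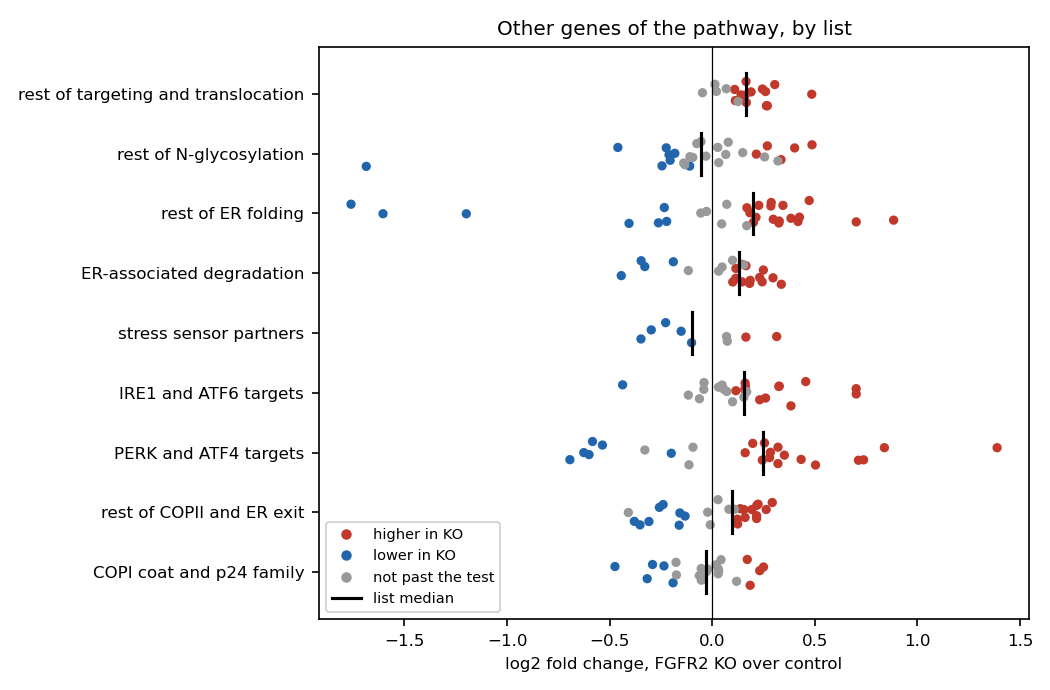
Log2 fold change, KO over control (horizontal axis), of every tested gene in 9 lists of related genes (points, coloured by call), with the list median as a black line. Medians run from -0.10 (stress sensor partners) to 0.25 (PERK and ATF4 targets), and the points farthest to the left in the ER folding row are P4ha2, Ero1l and P4ha1.

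Upstream, the 5 listed subunits of the signal recognition particle all passed the test, 3 higher and 2 lower in KO. The signal-binding subunit SRP54 is not among them: its gene copy Srp54c did not pass (log2 fold change 0.02, edgeR adjusted p = 0.868), Srp54a and Srp54b were too low to be tested, and reads of such near-identical copies may be split in counting. Srp68, one of the pair of large subunits that bind the particle RNA together (chromosome 11), stood at 125, 133 and 120 CPM in KO libraries, against 156, 154 and 149 CPM in control libraries. It fell by 0.28 with no overlap (SE 0.043, edgeR adjusted p = 8.3e-07), and its partner Srp72 fell by 0.13 (edgeR adjusted p = 0.00488). The small subunits rose. Srp14 and Srp9, which form the domain that slows translation, rose by 0.19 (edgeR adjusted p = 0.00167) and 0.14 (edgeR adjusted p = 0.021), and Srp19, which is needed for particle assembly, by 0.24 (edgeR adjusted p = 0.00129). The Srp9 groups overlapped, and its call was lost without KO replicate 2 (edgeR adjusted p = 0.0852), KO replicate 3 (0.0872) or control replicate 3 (0.175).

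At the channel, 2 genes were higher, 1 was lower and 2 did not pass. Sec63, a membrane J-domain protein that recruits BiP to the channel, stood at 144, 147 and 143 CPM in KO libraries, against 169, 172 and 164 CPM in control libraries. It fell by 0.22 with no overlap (SE 0.040, edgeR adjusted p = 1.45e-05). Its partner Sec62 was at 269, 266 and 229 CPM in KO libraries, against 230, 238 and 236 CPM in control libraries, a log2 fold change of 0.12 (edgeR adjusted p = 0.0216) with overlapping groups. The Sec62 call was lost without KO replicate 1 (edgeR adjusted p = 0.131), KO replicate 2 (0.112) or control replicate 1 (0.109). Exons of Sec62 and Sec63 overlap annotated genes on the opposite strand.

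Of the 3 channel subunits, Sec61b rose by 0.16 (edgeR adjusted p = 0.0078, and 0.0692 without KO replicate 3). The pore subunit Sec61a1 averaged 202 ± 5.67 CPM in KO and 192 ± 6.92 CPM in control libraries (SD, n = 3 each, log2 fold change 0.07, edgeR adjusted p = 0.128), and Sec61g had a log2 fold change of 0.03.

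The TRAP complex, which helps some signal peptides open the channel, was the one role with 0 called genes. Ssr1, Ssr2 and Ssr3 had log2 fold changes of -0.04, 0.03 and -0.02, and their 95% intervals stayed within -0.12 and 0.11. Ssr4 was higher in each KO library, at 0.11 (edgeR adjusted p = 0.0721), and passed without control replicate 1 (edgeR adjusted p = 0.0383). The group summed to 975 to 1003 CPM in KO and 985 to 1004 CPM in control libraries.

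Of the signal peptidase subunits, Spcs3, whose yeast counterpart is essential, stood at 132, 131 and 120 CPM in KO libraries, against 142, 144 and 151 CPM in control libraries. It was lower without overlap, by a log2 fold change of -0.19 with an SE of 0.044 (edgeR adjusted p = 4.28e-04). The accessory subunits Spcs1 and Spcs2 had log2 fold changes of 0.01 and -0.03 and did not pass. The catalytic subunits, outside the 56 genes, were higher in KO: Sec11a by 0.24 (edgeR adjusted p = 3.04e-04) and Sec11c by 0.16 (edgeR adjusted p = 0.00634). Over all tested genes 27.1% were higher and 27.5% lower. Of 18 other targeting and insertion genes tested, 13 were higher in KO (72.2%), 0 were lower and 5 did not pass, with a median of 0.16. The largest of the 4 with the smallest adjusted p was Tram2, a translocation-associated membrane protein, at 29.2 ± 1.28 CPM in KO and 20.8 ± 1.06 CPM in control libraries (SD, n = 3 each, log2 fold change 0.49, edgeR adjusted p = 1.82e-06). Get4, of the tail-anchored protein route, and the membrane insertase subunits Emc1 and Emc3 rose by 0.26, 0.30 and 0.27.

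Oligosaccharyltransferase, the enzyme complex that transfers the N-glycan, showed both directions. Of 9 listed genes, 4 were higher in KO, 2 were lower and 3 did not pass, with a median of 0.08. The 4 that rose are subunits shared by both forms of the complex, but not every shared subunit rose. Tmem258, another shared subunit outside the 56 genes, was lower, at 54.7 ± 7.83 CPM in KO and 64.8 ± 4.23 CPM in control libraries with overlapping groups (SD, n = 3 each, log2 fold change -0.24, edgeR adjusted p = 0.00235), and Ost4 did not pass at 0.07. Dad1 stood at 64.4, 60.1 and 61.3 CPM in KO libraries, against 50.9, 49.7 and 52.0 CPM in control libraries, a log2 fold change of 0.29 with an SE of 0.054 (edgeR adjusted p = 2.95e-05). Rpn1, which encodes ribophorin I, stood at 161, 159 and 157 CPM in KO libraries, against 131, 136 and 131 CPM in control libraries, a rise of 0.26 (SE 0.040, edgeR adjusted p = 1.39e-06). Neither pair of groups overlapped, and Ddost and Rpn2 rose by 0.21 and 0.17.

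The catalytic subunits did not pass. Stt3a, of the form that works at the channel during translation, and Stt3b, of the form that works after it, had log2 fold changes of 0.07 (edgeR adjusted p = 0.0935) and 0.08 (edgeR adjusted p = 0.103). Stt3a passed without KO replicate 1 (edgeR adjusted p = 0.0336) and Stt3b without KO replicate 3 (edgeR adjusted p = 0.0268). Magt1, the thioredoxin-like subunit of the STT3B form, stood at 110, 115 and 114 CPM in KO libraries, against 139, 131 and 125 CPM in control libraries, and fell by 0.23 (edgeR adjusted p = 5.14e-05). Krtcap2, a small subunit of the STT3A form, fell by 0.22 (edgeR adjusted p = 0.00102), and its exons overlap Trim46 on the opposite strand. Ostc, another subunit of the STT3A form, had a log2 fold change of 0.02.

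The other N-glycosylation genes showed no common direction, with 5 higher, 8 lower and 14 not passing of 27 tested (48.1% called, median -0.05). Mlec, a lectin that retains misfolded glycoproteins, rose by 0.27 (edgeR adjusted p = 1.33e-07), and Alg14, of an early lipid-linked step, by 0.40. Alg11, a mannosyltransferase of lipid-linked sugar assembly, fell by 0.46 (edgeR adjusted p = 3.38e-07). Uggt1, the folding sensor that returns glycoproteins to the lectin chaperones, fell by 0.21 to 259 ± 10.5 CPM in KO libraries, against 298 ± 3.76 CPM in control libraries (SD, n = 3 each, edgeR adjusted p = 1.43e-05). Its paralogue Uggt2, the leftmost point of that list in the plot of pathway lists and picked out after its value was seen, was barely detected, at 0.321, 0.306 and 0.494 CPM in KO libraries, against 0.763, 1.92 and 0.904 CPM in control libraries.

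The further ER folding genes held the largest differences near the 56 genes. Of 29 tested, 17 were higher in KO, 7 were lower and 5 did not pass (median 0.20). The called share was 82.8%, against 54.6% of all tested genes. Ero1l, the oxidase that recharges disulfide isomerases, stood at 60.7, 60.4 and 59.1 CPM in KO libraries, against 181, 184 and 183 CPM in control libraries, a log2 fold change of -1.60 with an SE of 0.044 (edgeR adjusted p = 1.28e-27). P4ha1 and P4ha2, the catalytic subunits of collagen prolyl 4-hydroxylase, which pair with the P4hb protein, fell by 1.20 and 1.76, while P4hb rose. Txndc5, a disulfide isomerase, rose by 0.88 to 372 ± 5.43 CPM in KO libraries, against 202 ± 1.79 CPM in control libraries (SD, n = 3 each, edgeR adjusted p = 3.5e-22).

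ER-associated degradation returns misfolded proteins to the cytosol. Of 22 tested genes of that route, 13 were higher, 4 were lower and 5 did not pass, with a median of 0.13. The called share was 77.3%, against 54.6% of all tested genes. Rnf5, a ubiquitin ligase, and Os9, a lectin that recognises misfolded glycoproteins, fell by 0.44 and 0.35, and Nploc4, a cofactor of the extraction ATPase, and Man1b1, a mannosidase, rose by 0.30 and 0.34.

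In the COPII coat, 6 of 10 genes were higher in KO, 1 was lower and 3 did not pass, with a median of 0.14. The called share was 70.0%, against 54.6% of all tested genes. Sec13, of the outer cage and also a nuclear pore subunit (chromosome 6, 113728062 to 113740743, minus strand), stood at 84.6, 80.8 and 79.6 CPM in KO libraries, against 63.9, 66.7 and 65.9 CPM in control libraries. Its log2 fold change was 0.32 (SE 0.049, edgeR adjusted p = 1.16e-06), with no overlap. Its cage partner Sec31a was higher by 0.10 (edgeR adjusted p = 0.0399). The Sec31a rise did not pass with the replicate number as a block (edgeR adjusted p = 0.0557) or without KO replicate 2 (0.0729), KO replicate 3 (0.0716), control replicate 2 (0.178) or control replicate 3 (0.126).

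The inner coat paralogues Sec23a and Sec23b moved in opposite directions. Both activate the GTPase that builds the coat. Sec23a stood at 58, 55 and 56 CPM in KO libraries, against 69, 67 and 69 CPM in control libraries, a log2 fold change of -0.28 with an SE of 0.052 (edgeR adjusted p = 2.49e-05). Sec23b stood at 69.0, 66.3 and 66.4 CPM in KO libraries, against 57.9, 59.1 and 56.7 CPM in control libraries, a log2 fold change of 0.21 with an SE of 0.052 (edgeR adjusted p = 6.43e-04). The log2 ratio of Sec23a to Sec23b counts averaged -0.25 ± 0.008 in KO and 0.24 ± 0.051 in control libraries (SD, n = 3 each), a difference of -0.49. Per kilobase of exon, Sec23a had 11.7 and Sec23b 10.7 CPM in KO libraries, against 14.1 and 9.19 CPM in control libraries. Exons of Sec23a overlap Gm17529 on the opposite strand.

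Sec24 proteins select the cargo. Sec24d stood at 79.3, 82.8 and 83.2 CPM in KO libraries, against 74.3, 66.3 and 72.5 CPM in control libraries, a log2 fold change of 0.20 (edgeR adjusted p = 8.49e-04) with no overlap. Its closest paralogue Sec24c stood at 105, 108 and 109 CPM in KO libraries, against 115, 108 and 114 CPM in control libraries, and did not pass (log2 fold change -0.06, edgeR adjusted p = 0.221). The log2 ratio of Sec24d to Sec24c averaged -0.39 in KO and -0.66 in control libraries, a difference of 0.27.

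Sec24a and Sec24b rose together, by 0.17 (edgeR adjusted p = 0.0288) and 0.14 (edgeR adjusted p = 0.01), and their ratio overlapped between groups. The Sec24a call was lost without KO replicate 2 (edgeR adjusted p = 0.193), control replicate 2 (0.0925) or control replicate 3 (0.0611), and the Sec24b call without control replicate 2 (0.074). Of the GTPases that start the coat, Sar1a had a log2 fold change of 0.03 and Sar1b of 0.13 (edgeR adjusted p = 0.0542, and 0.00598 without KO replicate 1). Per kilobase of exon the order in KO libraries was Sec24c at 17.0, Sec24b at 15.8, Sec24d at 12.9 and Sec24a at 3.57 CPM, and in control libraries it was the same, at 17.8, 14.4, 11.2 and 3.17 CPM.

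Other ER exit genes went both ways, with 12 higher, 8 lower and 6 not passing of 26 tested (median 0.09). Preb, which encodes the exchange factor SEC12 that loads Sar1 with GTP, fell by 0.31 (edgeR adjusted p = 1.98e-07). The cargo lectin Lman2 rose by 0.29, and the tethering proteins Rab1b and Uso1 each rose by 0.22.

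Among cargo and retrieval receptors, 2 of 6 genes were higher, 2 were lower and 2 did not pass. The KDEL receptors bind the tail of escaped ER proteins, including those of BiP, calreticulin and the disulfide isomerases. Kdelr1 stood at 64.0, 62.8 and 60.6 CPM in KO libraries, against 69.2, 70.8 and 71.6 CPM in control libraries, a log2 fold change of -0.18 with an SE of 0.051 (edgeR adjusted p = 0.00376). Kdelr2 stood at 125, 125 and 128 CPM in KO libraries, against 111, 116 and 113 CPM in control libraries, a log2 fold change of 0.15 with an SE of 0.042 (edgeR adjusted p = 0.0036).

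Neither gene had overlapping groups, and the log2 ratio of Kdelr2 to Kdelr1 averaged 1.01 ± 0.062 in KO and 0.69 ± 0.027 in control libraries (SD, n = 3 each), a difference of 0.32. Kdelr3 had a log2 fold change of 0.07 (95% interval -0.10 to 0.23). Per kilobase of exon the order was Kdelr2, Kdelr1 and Kdelr3 in both groups, at 68.8, 33.3 and 17.8 CPM in KO libraries and 62.1, 37.6 and 17.0 CPM in control libraries.

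Lman1, the cargo receptor ERGIC-53, was lower (log2 fold change -0.12, edgeR adjusted p = 0.0301), a call lost without KO replicate 2 (edgeR adjusted p = 0.067), KO replicate 3 (0.112), control replicate 2 (0.144) or control replicate 3 (0.101). Of the p24 proteins Tmed2 and Tmed10, which work as partners, Tmed2 rose by 0.13 (edgeR adjusted p = 0.0133, and 0.106 without control replicate 3) and Tmed10 did not pass at -0.04. The COPI coat and the rest of the p24 family, which carry retrieved proteins back, had 39.1% of 23 tested genes called, with 4 higher, 5 lower and 14 not passing, a median of -0.03, and 54.6% called over all tested genes. Tmed4 fell by 0.47, and the COPI subunits Cope and Copg2 fell by 0.32 and 0.29, while Tmed9 rose by 0.23.

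Across the 8 ratios of related genes, 4 did not overlap between groups: Sec23a to Sec23b, Sec24d to Sec24c, Kdelr2 to Kdelr1 and Calr to Canx. For each of these the exact two-sided permutation p was 0.10, the smallest that 3 against 3 libraries allow, and 0.20 after adjustment over the 8 ratios, so they cannot pass 0.05 by this test, and no test based on the variance was run on the ratios. The largest difference was that of Calr to Canx, at 0.37 ± 0.068 in KO and -0.27 ± 0.027 in control libraries (SD, n = 3 each), a difference of 0.64. Per kilobase of exon, Calr stood above Canx in both groups, at 368 and 175 CPM in KO libraries and 226 and 167 CPM in control libraries. Of all tested genes, 59.5% had groups that did not overlap in level, against 35 of the 56 genes here (62.5%).

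**Figure D5:**
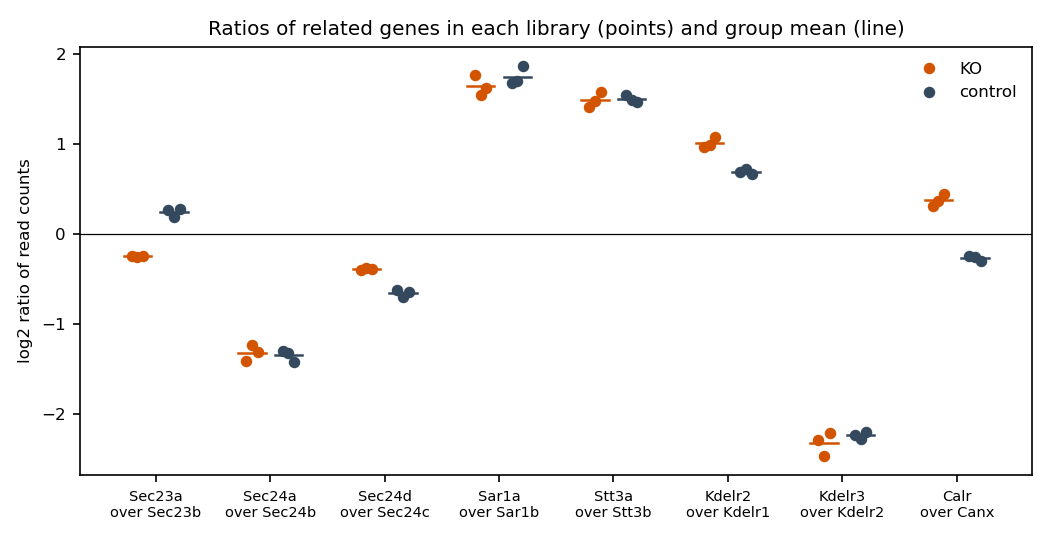
Log2 ratio of read counts of 8 pairs of related genes (vertical axis) in each KO and control library (points), with group means (lines). The Sec23a to Sec23b ratio lies below 0 in the 3 KO libraries and above 0 in the 3 control libraries, the Calr to Canx ratio the reverse, and the Stt3a to Stt3b ratio overlaps. Counts are not scaled by exon length, so the side of 0 does not rank the genes of a pair.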

How the data were processed

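Whole-number read counts per gene were deposited by the authors, 1 column per library and unscaled. The submitters' processing notes name FastQC 0.11.9, STAR 2.7.9a, featureCounts and R 4.1.1, and give the builds hg38 and mm10 without a role. Annotation release, strand setting and handling of multiply aligned reads were not given in the sources used here. In GENCODE M21 (mm10), exons of 18 of the 56 genes overlap a gene on the opposite strand. They are Srp9, Sec61a1, Sec62, Sec63, Ssr2, Spcs1, Spcs3, Rpn1, Rpn2, Krtcap2, Pdia3, Pdia6, Hsp90b1, Ddit3, Sec23a, Sec24c, Kdelr3 and Tmed10. These 18 are uncertain to that extent, whether or not the overlap is named with their values, as are genes with processed copies.

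From the deposited counts, edgeR 4.0.16 in R 4.3.3 removed low genes (filterByExpr, minimum count 10, total 15), scaled by TMM, and tested KO against control with the quasi-likelihood F-test and Benjamini-Hochberg adjustment over 12158 genes, the group being the only term. SE was taken as the absolute log2 fold change over the root of the F statistic, and intervals are 95%. Per-kilobase values divide CPM by the union of annotated exons, which can exceed the transcript made. The 56 genes, their roles and the other lists were chosen with earlier results of these data known. Values in every library are given for stress factors, the called gene with the largest change in each role and the 10 largest called changes. They are also given for the paralogue pairs that separated. In each other pathway list the genes with the 4 smallest adjusted p were named, and 1 listed symbol matched through a synonym. That rule did not cover the marker lists or the dissociation and heat list. Genes named beyond that, the promoter search and the comparison with genes at or above 16.3 CPM were chosen after values were seen.

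On simulated counts for this comparison (12158 genes, 50 changed at each size), the test recovered 68% of the genes seeded at a 1.25-fold change, 88% of those at 1.5-fold, 90% of those at 2-fold and 94% of those at 4-fold. The misses at 2-fold and above were genes under 5 CPM, and among seeded genes at or above 5 CPM those shares were 82.9% at 1.25-fold and 100% at the larger sizes. Of the calls, 7.10% were unchanged genes. The pass mark of this check was first set over all seeded genes and was moved to those at or above 5 CPM after the misses had been examined. Within-group library pairs exceeded counting noise (chi-square over its degrees of freedom 3.85 to 4.87 in KO, 2.29 to 2.69 in control), so no library was treated as a repeat deposit of another. That check does not show that they came from separate cultures. The alternatives were RLE, upper quartile and no scaling, no filter, a mean of at least 5 CPM, DESeq2 1.42.0, limma-voom (limma 3.58.1), a minimum fold change of 1.5, a replicate block and leaving out each library. 0 columns were left unassigned.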

Additional observations from a re-analysis of the deposited data

How the results depend on the processing

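Against a minimum fold change of 1.5, 907 genes were called in all, 402 higher and 505 lower, and of the 56 genes 1 was higher (Calr) and 0 were lower, since every other gene of the 56 changed by less than 1.5-fold. Under the other 14 alternatives the counts of the 56 genes stayed within 1.5 times the reported ones, from 18 to 25 higher and from 10 to 13 lower, and 25 of the 34 called genes kept their call in all 14. The other 9, Srp9, Sec61b, Sec62, Ddit3, Sec31a, Sec24a, Sec24b, Lman1 and Tmed2, lost it in at least 1, and 7 of the 22 uncalled genes gained one. With upper quartile scaling Srp9, Sec62, Sec31a and Sec24a lost their call and Pdia6 was called lower (-0.08). In DESeq2 Srp9, Ddit3, Sec24a and Lman1 lost their call and Stt3a was called higher. Without the filter on low counts Ddit3 and Lman1 lost their call and Sar1b was called higher. No called gene changed sign. Leaving out 1 library gave 5922 to 6276 calls over all genes, and for the 56 genes 18 to 23 higher and 10 to 12 lower. With 1 library left out, the difference in log2 ratio ran from -0.52 to -0.47 for Sec23a to Sec23b and from 0.25 to 0.28 for Sec24d to Sec24c. It ran from 0.29 to 0.35 for Kdelr2 to Kdelr1 and from 0.60 to 0.67 for Calr to Canx. For Sar1a to Sar1b it ran from -0.17 to -0.05, and for Kdelr3 to Kdelr2 from -0.14 to -0.02. Sec24a to Sec24b (-0.01 to 0.08) and Stt3a to Stt3b (-0.06 to 0.03) changed sign.

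Over all tested genes, deviations of same-numbered libraries from their group means correlated at -0.03, -0.003 and -0.06. For libraries with different numbers the correlations ran from -0.03 to 0.05. Same-numbered libraries were thus no more alike over the genes as a whole. These values cannot exclude a shared culture that moved only some genes. With the replicate block, 6443 genes were called (3206 higher and 3237 lower), with 21 of the 56 genes higher and 12 lower.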
